A study of Homo sapiens with 23 samples.

Results

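The Hippo pathway is represented here by 36 genes of its core and its closest regulators, chosen by name and not by any measured value. They were sorted by role into 6 core kinases, 3 core adaptors, 6 upstream regulators, 8 upstream kinases, 7 effectors and 6 proteins that bind YAP1 or the LATS kinases. All 36 were found among the 58358 genes of the deposited table, and all 36 passed the filter on low values (a level of at least 1 in at least 3 lines), as did 14884 genes in all.

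In the pathway, STK3 and STK4 (MST2 and MST1) with the scaffold SAV1 activate LATS1 and LATS2 with their cofactors MOB1A and MOB1B, and the LATS kinases phosphorylate YAP1 and WWTR1 (TAZ). Phosphorylated YAP1 and TAZ are held in the cytoplasm or degraded, and without this brake they enter the nucleus, bind the TEAD factors and activate transcription. In mammary epithelial cells the pathway is known for reading cell density, polarity and matrix stiffness.

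RNA was measured in 13 lines of MCF10A, a non-transformed human mammary epithelial line, with 1 library per line. Of these, 4 lines expressed a DNA contact mutant of p53 (R248Q, R248W, R273C and R273H) and 6 a structural mutant (G245S, H179R, R175H, Y163C, Y220C and Y234C), each from the lentiviral vector pLenti4/V5-DEST, with a V5 tag at the C-terminus and beside the endogenous wild-type p53. The 3 control lines carried an shRNA against p53 (WTKD), ectopic wild-type p53 with the V5 tag from another vector, pLX304 (WTOE), or endogenous p53 alone (WT), and all 13 lines were untreated. Chromatin bound by V5-tagged p53 was profiled in the R273C, R273H, Y220C, Y234C and WTOE lines. No line was measured again, so the lines of a class take the place of replicates without being repeats of 1 condition. The mutant lines differ in their mutation and the 3 control lines in their p53, so the spread within a class includes such differences. A value of 1 line cannot be separated from that of its library.

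Levels are log2(TPM+1) throughout, where TPM is scaled to gene length and to the library total, so that genes of different length can be compared. The read depth of each library is not given by TPM values, so no counting error can be attached to a level. The number of genes above 0 ranged from 12122 in R273H to 15975 in Y163C, with 12409 in Y234C and 12284 in the library labelled WT. The 50 most abundant genes took 46.8% of all TPM in Y234C and 37.4% in R273H, against 27.1% to 33.6% in the other 11 libraries. All 12 basal mammary markers passed the filter, with summed levels of 3837 to 6450 TPM in mutant lines and 4398 to 7028 TPM in control lines. The 6 epithelial markers summed to 115 to 827 TPM in mutant lines and 591 to 688 TPM in control lines. These sums hide single markers that were lost in some lines. TP63 was at 0 in 3 lines and KRT14 in 1, and the lowest levels of COL17A1, CDH1 and ESRP1 were 0.22, 0.25 and 0.22. The lowest level among the other markers of both lists was 2.48 (CLDN1). Of markers of other cell types, 6 of 8 for blood cells (among them PTPRC and CD3E), 2 of 6 for endothelium (VWF and CLDN5) and 1 of 8 for fibroblasts (COL1A2) were at 0 in all 13 lines, but DCN was above 0 in every line, at 1.18 to 5.59, and CD14 reached 5.64 and FAP 5.19. Summed, the fibroblast markers were at 4.66 to 76.8 TPM in mutant lines and 5.14 to 43.3 TPM in control lines, and the blood cell markers at 0 to 25.6 TPM in mutant lines and 4.62 to 48.9 TPM in control lines. Statements on the control libraries below refer to the library of that label.

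The first question was whether mutant and control lines, or contact and structural mutants, differed in the RNA of the pathway. No member passed the test in either comparison. Between the 10 mutant and the 3 control lines, 0 of 36 members had an adjusted p under 0.05 (limma, Benjamini-Hochberg over 14884 genes), where 0.0202% of all tested genes did, and the lowest adjusted p among members was 0.932. Between the 4 contact and the 6 structural lines, 0 of 36 members and 0% of the tested genes were called, with a lowest adjusted p of 0.960 among members. At an unadjusted p under 0.05 there was 1 member in the first comparison and 2 in the second, where 4.83% and 4.93% of all tested genes reached it. The members' differences had a median of −0.11 between mutant and control lines, with 16 positive and 20 negative, beside −0.08 over all tested genes. Between contact and structural lines the median was 0.06, with 19 positive and 17 negative, beside 0.01 over all tested genes. The standard errors of these differences ran from 0.39 (NF2) to 0.81 (TEAD2) in the first comparison. In the second they ran from 0.41 (NF2) to 0.77 (MINK1). A difference of 1 log2 unit was thus under 3 standard errors for every member. It was not detectable after adjustment with this number of lines. In the first comparison the errors also hold the differences between WTKD, WTOE and WT, which differ in p53 by design.

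By role, class means lay close together. The mean level of the 6 core kinases was 4.71 ± 0.33 in contact lines (SD, n = 4), 4.44 ± 0.72 in structural lines (n = 6) and 4.54 ± 0.49 in control lines (n = 3). The 7 effectors averaged 4.77 ± 0.32 in contact lines, 4.62 ± 0.39 in structural lines and 4.70 ± 0.26 in control lines. The upstream kinases averaged 3.57 ± 0.92, 3.68 ± 0.43 and 3.86 ± 0.45 in contact, structural and control lines. In each of these roles the class means lay closer together than the spread between lines of a class. The core adaptors were at 6.13 ± 0.44 in contact, 6.18 ± 0.75 in structural and 6.23 ± 0.14 in control lines, the upstream regulators at 4.72 ± 0.45, 4.37 ± 0.33 and 4.70 ± 0.44, and the YAP or LATS binders at 5.59 ± 0.67, 5.80 ± 0.22 and 5.77 ± 0.41.

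Members varied more by line. The map of distances from the other lines shows Y234C and R273H as the columns with most members far from the rest.

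**Figure D1:**
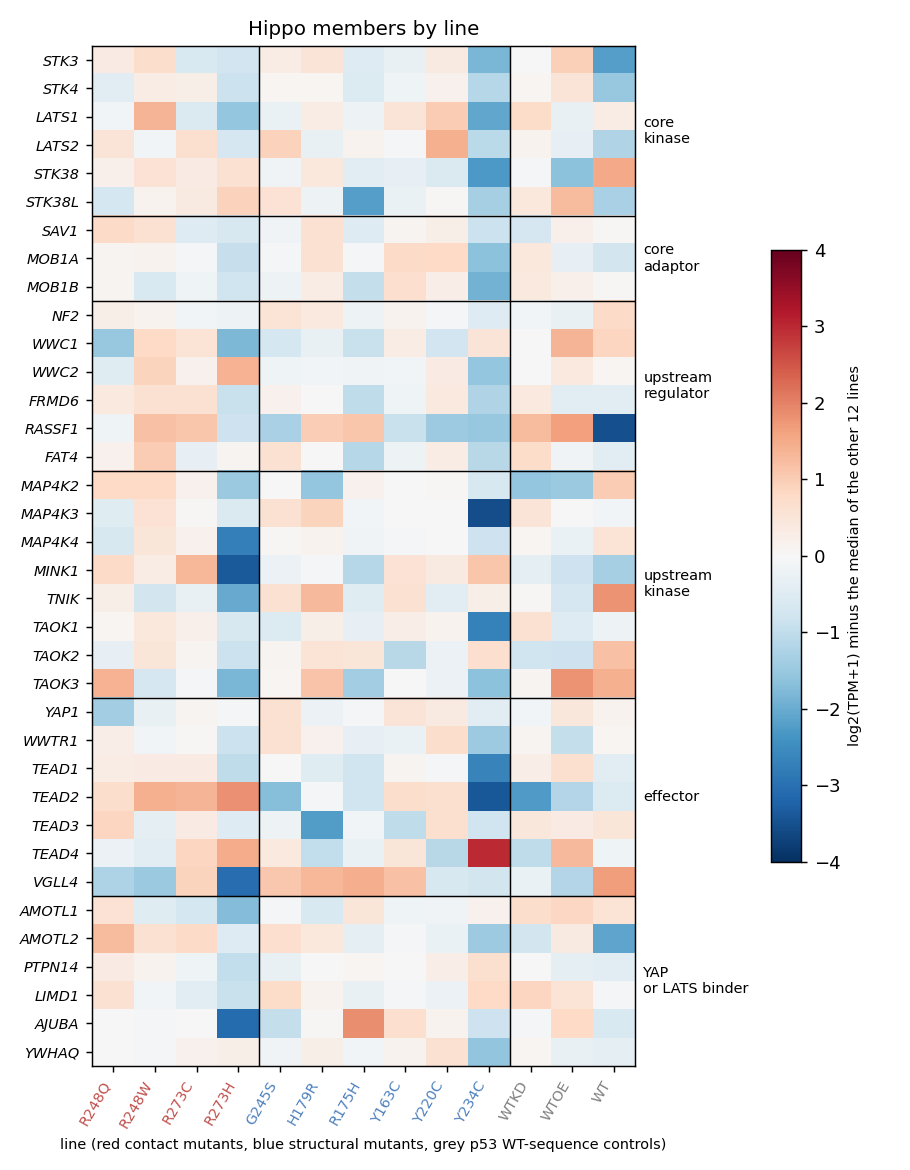
Each cell is the level of 1 of 36 Hippo members, as log2(TPM+1), in 1 of 13 lines minus the median of the other 12 lines, with members grouped by role and lines by class. Y234C has 20 members at least 1 unit lower, R273H has 11, and TEAD4 in Y234C is 2.97 higher.

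In Y234C, 20 members were at least 1 log2 unit below the median of the other 12 lines and 2 at least 1 above it, where 42.3% and 10.6% of the tested genes were. In R273H, 11 members were lower by that much and 3 higher, where 35.2% and 11.5% of the tested genes were. The shift of these libraries was shared by the whole transcriptome, with a median distance of all tested genes of −0.71 in Y234C and −0.49 in R273H. For the members these medians were −1.14 and −0.83. TPM values are shares of a library total. Less RNA of a gene per cell, fewer cells of a kind and another library composition cannot be told apart by them. After quantile normalization, which forces the libraries to the same distribution, 8 members were lower and 7 higher in Y234C, and 7 lower and 4 higher in R273H, while with TPM rescaled without the 50 highest genes of each library 16 were lower and 5 higher in Y234C, and 10 lower and 4 higher in R273H. Lower members thus outnumbered higher ones in both lines when the 50 highest genes were left out. After quantile normalization the counts were nearly even in Y234C, at 8 and 7, and stood at 7 and 4 in R273H. These counts are not set beside shares of tested genes, so no excess over all genes can be read from them. In the library labelled WT, 6 members were higher and 7 lower, with 14.4% and 15.9% of tested genes. In the library labelled WTOE there were 5 and 4, with 15.0% and 13.7% of tested genes, and in WTKD 1 and 3, with 16.7% and 7.36%. In either direction, the other contact lines had 5 members that far away in R248Q, 5 in R248W and 3 in R273C, where 31.2%, 24.7% and 23.0% of tested genes were. Of the other structural lines, R175H had 8 such members, H179R 5, Y220C 4, and G245S and Y163C 3 each, where 25.8%, 25.0%, 25.3%, 24.4% and 21.2% of tested genes were. In each of these 8 lines the share of members was below that of tested genes. The members were also more abundant, with a median over genes of 4.98 for the mean level, beside 3.37 for all tested genes, and they had a median SD over lines of 0.81, beside 0.95.

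**Figure D2:**
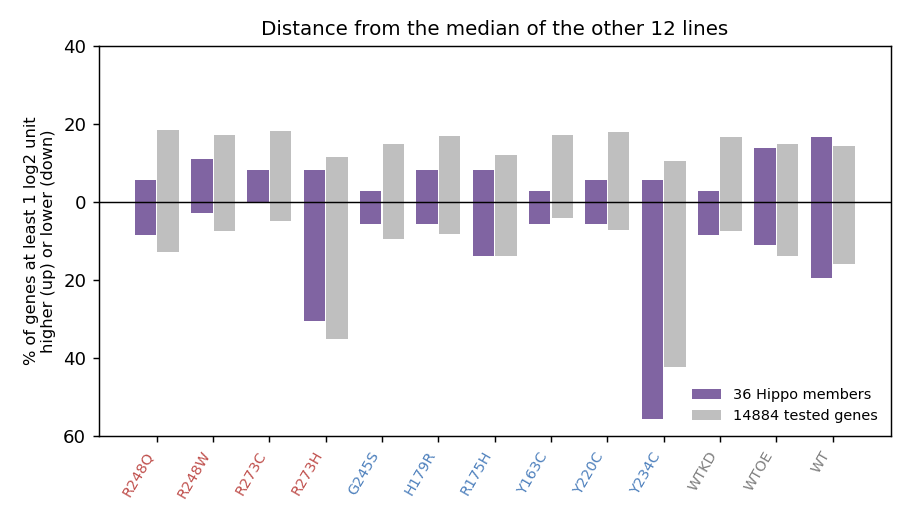
Bars give the percentage of the 36 Hippo members (purple) and of the 14884 tested genes (grey) that lay at least 1 unit of log2(TPM+1) above (up) or below (down) the median of the other 12 lines, for each line. The downward bars are longest in Y234C and R273H for members and for all genes alike.

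The lowest value over the 13 lines was that of Y234C for 14 members, where 24.2% of tested genes had theirs, and that of R273H for 10, where 16.4% did. A tested gene with its lowest value tied between lines was counted for no line but stayed in the total. These shares are therefore lower than those among genes with a single lowest line, and no excess of members can be read from them. The library labelled WTOE held the highest value of 8 members, beside 9.28% of tested genes, and the library labelled WT that of 7, beside 9.02%. Levels were also set beside the number of genes detected in a library. Over the 13 lines the correlation of a member with that number was positive for 33 of 36 members, with a median Pearson r of 0.32, beside 75.9% positive and a median of 0.28 over all tested genes. These correlations share the libraries, and their part in the values of single lines was not tested.

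The lower members of both lines were also counted by role. In Y234C all 6 core kinases were at least 1 unit lower, by 1.09 (LATS2) to 2.29 (STK38), as were 2 of 3 core adaptors, 4 of 6 upstream regulators, 3 of 8 upstream kinases, 3 of 7 effectors and 2 of 6 YAP or LATS binders. In R273H the lower members were 1 of 6 core kinases (LATS1), 0 of 3 core adaptors, 1 of 6 upstream regulators (WWC1), 5 of 8 upstream kinases, 2 of 7 effectors and 2 of 6 binders. LATS1, TAOK3 and TEAD1 were lower in both. With 1 library per line, the counts of the lines were not tested against each other.

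Among the core kinases, STK4 and STK3, the MST kinases at the head of the cascade, had the same extremes. STK4 was at 4.89, 5.56, 5.50 and 4.49 in the contact lines R248Q, R248W, R273C and R273H, between 4.18 and 5.43 in the structural lines with a median of 5.26, and at 5.34, 5.77 and 3.81 in WTKD, WTOE and WT. STK3 was at 4.71, 5.08, 3.97 and 3.81 in the same contact lines, between 2.74 and 4.88 in structural lines with a median of 4.47, and at 4.48, 5.33 and 2.38 in WTKD, WTOE and WT. Both were lowest in the library labelled WT, second lowest in Y234C and highest in the library labelled WTOE. STK4 was the more abundant of the pair in all 13 lines, with 53.1% to 75.7% of their summed TPM. Across the 13 lines their levels had a Pearson r of 0.90 (Spearman 0.80), and 0.88 over 11 lines without R273H and Y234C, the closest relation of the 26 pairs within families examined. Both values of a line come from the same library.

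LATS1 and LATS2, the kinases that phosphorylate YAP1, shared no such order. LATS1 was highest in R248W (6.28) and Y220C (5.91) and lowest in Y234C (2.99) and R273H (3.54), with 5.63, 4.77 and 5.22 in WTKD, WTOE and WT. LATS2 was highest in Y220C (6.03) and G245S (5.53) and lowest in the library labelled WT (3.49) and in Y234C (3.61). LATS1 led the pair in 7 lines and LATS2 in 6, and the share of LATS1 ran from 36.8% in R273C to 78.0% in the library labelled WT. Their r was 0.45 over 13 lines and 0.01 without R273H and Y234C. The difference between contact and structural lines was −0.06 (SE 0.65) for LATS1 and −0.08 (SE 0.53) for LATS2.

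The NDR kinases STK38 and STK38L are relatives of LATS that also bind MOB1. STK38 had the highest mean of the core kinases (5.24) and the widest range. It was at 5.53, 5.90, 5.65 and 5.93 in R248Q, R248W, R273C and R273H, between 3.15 (Y234C) and 5.74 (H179R) in structural lines with a median of 5.04, and at 5.35, 3.80 and 6.84 in WTKD, WTOE and WT. The contact lines thus formed a tight band above most structural lines, with a difference of 0.89 (SE 0.52, unadjusted p = 0.107, limma adjusted p = 0.970). STK38L ran from 1.18 in R175H to 4.53 in the library labelled WTOE. That library was the only 1 of 13 in which STK38L led, with 63.1% of the TPM of the pair, against 2.78% in the library labelled WT.

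**Figure D3:**
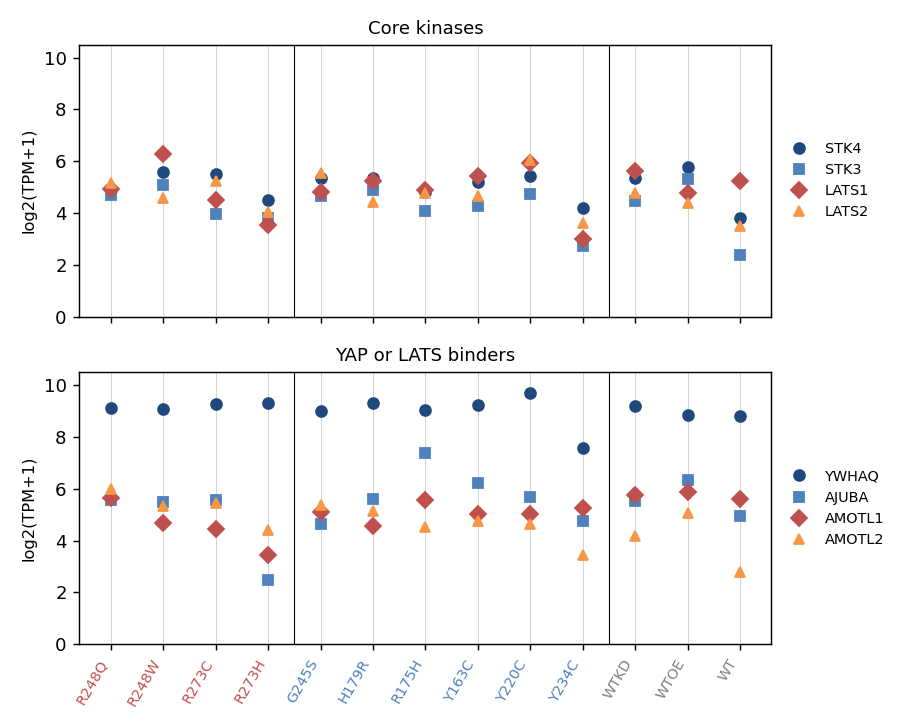
Points are the levels, as log2(TPM+1), of STK4, STK3, LATS1 and LATS2 (top) and of the YAP or LATS binders YWHAQ, AJUBA, AMOTL1 and AMOTL2 (bottom) in each line, with vertical lines between contact, structural and control lines. STK3 and STK4 are low together in Y234C and WT, and AJUBA is at 2.48 in R273H and 7.39 in R175H.

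The core adaptors were led by MOB1A, the cofactor of LATS and NDR kinases. MOB1A was at 8.01, 8.03, 7.89 and 7.04 in R248Q, R248W, R273C and R273H, between 6.30 (Y234C) and 8.71 (Y220C) in structural lines with a median of 8.21, and at 8.32, 7.61 and 7.21 in WTKD, WTOE and WT. MOB1B was at 5.29, 4.65, 5.11 and 4.48 in the contact lines, between 3.39 (Y234C) and 5.86 (Y163C) in structural lines with a median of 5.26, and at 5.57, 5.39 and 5.26 in WTKD, WTOE and WT. MOB1A made up 79.8% to 92.6% of the pair in all 13 lines. An exon of DCK overlaps one of MOB1B on the same strand, and DCK too was lowest in Y234C, at 2.58, so reads of these 2 genes may not be fully separable. SAV1, the scaffold of the MST kinases, had a narrow range, 4.90 in Y234C to 6.43 in R248Q.

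Of the upstream regulators, NF2 (merlin, which brings LATS to the membrane) had the narrowest range of all 36 members. It was at 5.49, 5.41, 5.23 and 5.14 in R248Q, R248W, R273C and R273H, between 4.83 and 5.81 in structural lines with a median of 5.35, and at 5.25, 5.07 and 6.04 in WTKD, WTOE and WT. RASSF1, a scaffold that binds the MST kinases, had the widest range of this group. It was at 3.13, 4.07, 4.03 and 2.70 in the contact lines, between 1.99 (Y234C) and 4.01 (R175H) in structural lines with a median of 2.41, and at 4.18 in WTKD and 4.54 in the library labelled WTOE. In the library labelled WT it was listed at 0, so no fold change against that line is given. WWC1 and WWC2 (KIBRA and its paralog, partners of NF2) divided their TPM differently by line. WWC2 made up 86.5% in R273H, with WWC1 at 3.60 and WWC2 at 6.17, and WWC1 made up 85.6% in Y234C, with 5.72 and 3.28. WWC1 averaged 4.94 ± 0.81 in mutant lines (n = 10) and 5.98 ± 0.62 in control lines (n = 3), a difference of −1.04 (SE 0.54, unadjusted p = 0.0731, limma adjusted p = 0.932). FRMD6 ran from 4.22 to 5.92, and the protocadherin FAT4 from 2.60 to 4.66.

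The upstream kinases, which phosphorylate LATS in parallel with the MST kinases, included several of the low values of R273H. MAP4K4 was the most abundant, at 6.11, 7.20, 6.86 and 4.01 in R248Q, R248W, R273C and R273H, between 5.90 and 6.85 in structural lines with a median of 6.70, and at 6.77, 6.49 and 7.25 in WTKD, WTOE and WT. MINK1, its close relative, was at 3.94, 3.46 and 4.52 in R248Q, R248W and R273C and listed at 0 in R273H, between 2.21 (R175H) and 4.30 (Y234C) in structural lines with a median of 3.40, and at 3.01, 2.52 and 2.04 in WTKD, WTOE and WT. TNIK, the third of this branch, was also listed at 0 in R273H and reached 3.65 in the library labelled WT. MAP4K4 led the 5 MAP4K genes by TPM in 12 lines. In R273H, MAP4K3 led with 50.7%, while in Y234C MAP4K3 was at 1.09 (1.37% of the family), against 4.06 to 5.51 in the other 12 lines. MAP4K2 was low everywhere, from 0 in H179R and WTKD to 2.54 in the library labelled WT.

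A value of 0 did not befall abundant genes often. Genes at a level of 4 or more in the other 12 lines and at 0 in the remaining line numbered 2 in R273H, 1 in Y234C and 0 in each of the other 11 lines. No member listed at 0 met that level: in the other 12 lines the lowest value was 2.04 for MINK1 and 1.28 for TNIK. Among the 14884 genes tested, 3691 were at 0 in R273H, the most of any line. MINK1, TNIK and VGLL4 were the members at 0 there.

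TAOK3, which acts upstream of the MST and LATS kinases, was the member with the lowest unadjusted p between mutant and control lines. It was at 5.03, 3.03, 3.65 and 1.87 in R248Q, R248W, R273C and R273H, between 2.06 (Y234C) and 4.80 (H179R) in structural lines with a median of 3.56, and at 3.76, 5.44 and 5.07 in WTKD, WTOE and WT. The mean of the 10 mutant lines was 3.36 ± 1.07, against 4.76 ± 0.88 in the 3 control lines. The classes overlapped, since WTKD lay below R248Q and H179R. The difference was −1.40 (SE 0.65, unadjusted p = 0.0477, limma adjusted p = 0.932), and without the library labelled WTOE it was −1.06 (unadjusted p = 0.193). TAOK1 led the TAOK kinases in 12 lines, and in Y234C, where TAOK1 was at 3.28, TAOK2 led with 49.4%.

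Among the effectors, TEAD1 and TEAD4 had opposite extremes. TEAD1, the main TEAD factor of these cells, was at 7.55 in each of R248Q, R248W and R273C and at 6.27 in R273H, between 4.62 (Y234C) and 7.34 (Y163C) in structural lines with a median of 7.02, and at 7.50, 7.89 and 6.85 in WTKD, WTOE and WT. TEAD4 was at 4.68, 4.47, 5.56 and 6.19 in the contact lines, between 3.80 (Y220C) and 7.67 (Y234C) in structural lines with a median of 4.87, and at 3.89, 6.0 and 4.72 in WTKD, WTOE and WT. TEAD4 was thus highest in the line in which TEAD1 was lowest, and second highest in R273H, in which TEAD1 was second lowest.

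By TPM, TEAD1 held 42.5% to 88.8% of the family in 12 lines. In Y234C it held 10.3% (23.5 TPM) and TEAD4 88.4% (203 TPM). In R273H the family was divided between TEAD1 with 42.5%, TEAD4 with 40.0% and TEAD2 with 15.3%. The summed TEAD level was 229 TPM in Y234C and 180 TPM in R273H, within the range of 125 TPM (R175H) to 310 TPM (WTOE) of the other lines. The r of TEAD1 with TEAD4 was −0.61 over 13 lines and 0.43 over 11 lines without R273H and Y234C, so the inverse relation rested on these 2 lines.

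**Figure D4:**
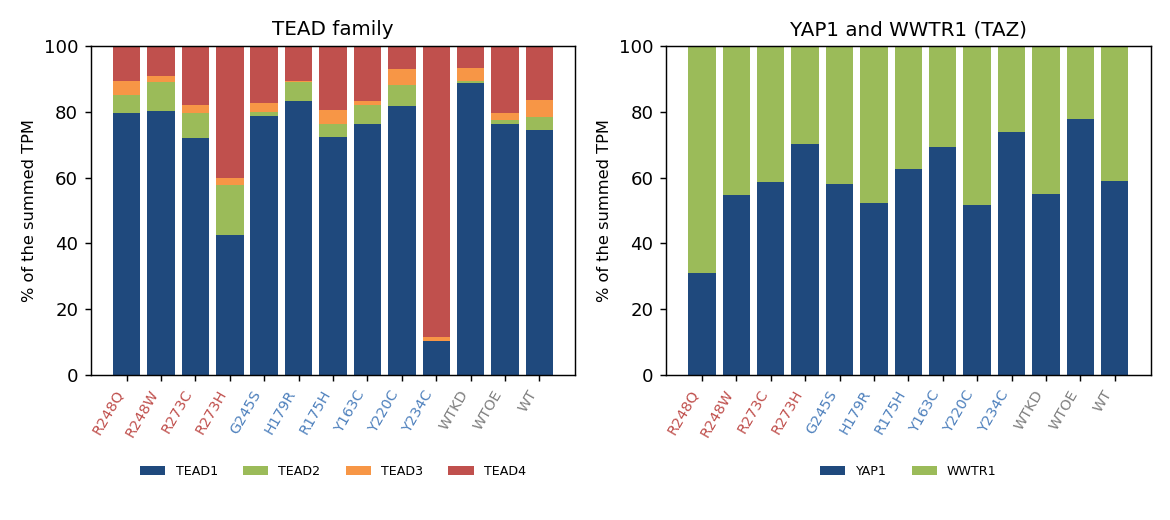
Stacked bars give the percentage of the summed TPM held by TEAD1, TEAD2, TEAD3 and TEAD4 (left) and by YAP1 and WWTR1 (right) in each line. TEAD4 holds 88.4% of the TEAD family in Y234C, and WWTR1 holds 68.9% of its pair in R248Q.

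YAP1 and WWTR1, the coactivators restrained by the pathway, were among the steadier members. YAP1 was at 5.20, 6.29, 6.64 and 6.52 in R248Q, R248W, R273C and R273H, between 6.14 and 7.14 in structural lines with a median of 6.72, and at 6.48, 6.97 and 6.68 in WTKD, WTOE and WT. WWTR1 was at 6.33, 6.02, 6.13 and 5.29 in the contact lines, between 4.68 (Y234C) and 6.79 (Y220C) in structural lines with a median of 6.06, and at 6.19, 5.18 and 6.16 in WTKD, WTOE and WT. YAP1 held 51.8% to 77.9% of the pair in 12 lines, and in R248Q WWTR1 led with 68.9%, and the YAP1 level of that line was the lowest of the 13. R248W, mutated at the same residue, had YAP1 at 54.7% of the pair.

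TEAD2 and VGLL4 were the 2 members with an unadjusted p under 0.05 between contact and structural lines. TEAD2 was at 3.73, 4.44, 4.37 and 4.83 in R248Q, R248W, R273C and R273H, against a range from 0 (Y234C) to 3.72 (Y163C) with a median of 2.88 in structural lines, and at 1.15, 2.23 and 2.86 in WTKD, WTOE and WT. All 4 contact lines lay above all 6 structural lines, but R248Q lay above Y163C by 0.01 only. Of all tested genes, 0.766% had their contact lines above all structural lines. The means were 4.34 ± 0.46 in contact and 2.47 ± 1.42 in structural lines, a difference of 1.87 (SE 0.69, unadjusted p = 0.0166, limma adjusted p = 0.960). It was 1.37 without Y234C, in which TEAD2 was listed at 0. CD37, which overlaps TEAD2 on the other strand, was at 0 in all 10 mutant lines.

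VGLL4, which competes with YAP1 for TEAD, had the opposite order. It was at 1.80, 1.57 and 3.44 in R248Q, R248W and R273C and listed at 0 in R273H, against 2.31 (Y234C) to 3.98 (R175H) with a median of 3.67 in structural lines, and 2.66, 1.89 and 4.20 in WTKD, WTOE and WT. R273C lay among the structural lines, so the classes overlapped. The means were 1.7 ± 1.41 in contact and 3.32 ± 0.75 in structural lines, a difference of −1.62 (SE 0.64, unadjusted p = 0.0245, limma adjusted p = 0.960). Without R273H it was −1.05 (unadjusted p = 0.102). ATG7, whose exons overlap those of VGLL4 on the other strand, was at 2.2 in R273H and 3.66 to 5.31 in the other mutant lines. TEAD3, with the lowest TEAD level in 7 lines, ran from 0.59 in H179R to 3.51 in R248Q.

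**Figure D5:**
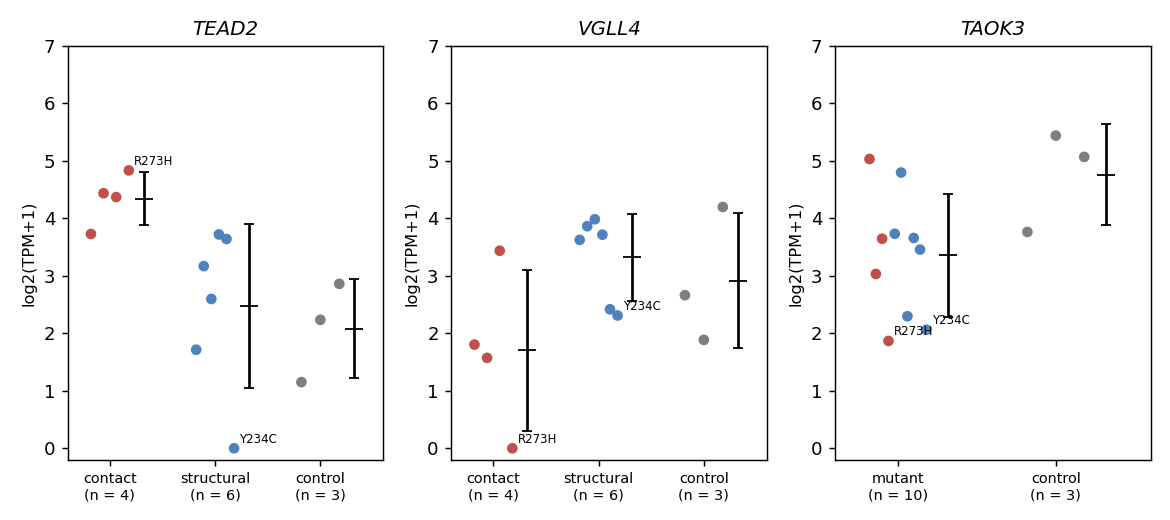
Points are the lines' levels, as log2(TPM+1), of TEAD2 and VGLL4 in contact, structural and control lines and of TAOK3 in mutant and control lines, with black bars for the mean ± SD. Contact lines are above all structural lines for TEAD2 (difference 1.87), lower on average for VGLL4 (−1.62), and TAOK3 is 1.40 units lower on average in mutant lines; none passed adjustment over all genes.

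The last group binds YAP1 or the LATS kinases. YWHAQ, a 14-3-3 protein that retains phosphorylated YAP1 in the cytoplasm, was the most abundant of the 36 members. It was at 9.12, 9.07, 9.27 and 9.32 in R248Q, R248W, R273C and R273H, between 7.57 (Y234C) and 9.69 (Y220C) in structural lines with a median of 9.14, and at 9.18, 8.84 and 8.79 in WTKD, WTOE and WT. AJUBA, a LIM protein that restrains LATS, had the widest range of all members. It was at 5.57, 5.49, 5.55 and 2.48 in the contact lines, between 4.62 (G245S) and 7.39 (R175H) in structural lines with a median of 5.63, and at 5.53, 6.35 and 4.95 in WTKD, WTOE and WT. In TPM this spanned 4.57 in R273H to 167 in R175H.

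AMOTL1 and AMOTL2, angiomotin-like proteins that bind YAP1 at junctions, led in different lines. AMOTL2 led in all 4 contact lines and in G245S and H179R, and AMOTL1 in the other 4 structural lines and all 3 control lines. AMOTL1 averaged 4.87 ± 0.63 in mutant lines and 5.76 ± 0.14 in control lines, a difference of −0.89 (SE 0.46, unadjusted p = 0.0726, limma adjusted p = 0.932). AMOTL2 averaged 4.91 ± 0.71 in mutant and 4.02 ± 1.14 in control lines, a difference of 0.89 (SE 0.55, unadjusted p = 0.125, limma adjusted p = 0.932). The low AMOTL2 of the library labelled WT, 2.80, was the lowest of all lines. PTPN14, a phosphatase that binds YAP1, stayed within 5.35 to 6.95, and LIMD1, a LIM protein that binds LATS, within 2.92 to 4.62.

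The control lines also differed from each other. Against the library labelled WT, 8 members were at least 1 unit higher in WTKD and 7 lower, where 25.0% and 15.4% of tested genes were. In the library labelled WTOE, 8 were higher and 5 lower than in the library labelled WT, where 20.4% and 18.0% of tested genes were. STK3, STK4, STK38L, RASSF1 and AMOTL2 were at least 1 unit higher, and STK38, VGLL4, TAOK2, TNIK and MAP4K2 at least 1 lower, in both. Both comparisons share the library labelled WT, so these members describe that library. Between WTKD and the library labelled WTOE, 3 members were higher and 4 lower, where 22.4% and 15.4% of tested genes were.

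Genes around the core were not called either. Of 58 other Hippo genes, 50 were tested. None had an unadjusted p under 0.05 between mutant and control lines, and 1 did between contact and structural lines: PARD6B, a polarity protein, at 1.14 ± 1.32 in contact and 2.61 ± 0.90 in structural lines (difference −1.48, SE 0.65, unadjusted p = 0.0403, limma adjusted p = 0.960). All 37 listed YAP/TAZ target genes were tested and none was called. Between mutant and control lines 25 of the 37 differences were positive, with a median of 0.42, where 45.0% of all tested genes were positive. In the same comparison 5 of 6 epithelial markers were lower in mutant lines (median −0.64) and 4 of 5 tested fibroblast markers were higher (median 0.64). Of the basal markers 8 of 12 were lower (median −0.55), 3 of them at an unadjusted p under 0.05 (limma). None of these markers was called. Among the target genes, 2 were higher at an unadjusted p under 0.05, GADD45B by 2.88 (SE 0.78) and TNS1 by 1.67 (SE 0.69). Another 3 target genes were lower at that level, NUAK2 by 2.21 (SE 0.68), FJX1 by 1.51 (SE 0.42) and NT5E by 1.31 (SE 0.58). All had a limma adjusted p of 0.468 or more.

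Between contact and structural lines 28 of the 37 target genes were higher in contact lines, where 50.4% of tested genes were, and the median difference was 0.34. At an unadjusted p under 0.05, 4 were higher and 0 lower, among them ANKRD1 by 2.08 (SE 0.92) and TGM2 by 1.7 (SE 0.77), both with a limma adjusted p of 0.960. ANKRD1 is a widely used readout of YAP and TAZ activity. The epithelial and basal markers had the opposite sign in the same comparison. Of the epithelial markers 5 of 6 were lower in contact lines, with a median difference of −1.42, and of the basal markers 9 of 12, with a median of −0.76, 3 of them at an unadjusted p under 0.05 and none called. The part of these markers in the values of the target genes was not tested in either comparison.

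The second question was whether V5-tagged p53 was bound at these genes. A promoter was taken as 2500 bp upstream to 100 bp downstream of any annotated start site, and the 36 members had 329 such sites. No member had a peak in a promoter in any of the 5 lists. Among tested genes the share with a promoter peak was 6.72% in WTOE, 2.68% in R273H, 1.19% in Y234C, 0.250% in Y220C and 0% in R273C. No test was made of the members' count against these shares. The nearest peak to a member's start site in any list was 2825 bp upstream of a VGLL4 start site, in the WTOE list. Peaks of NF2 (3616 bp upstream) and STK4 (5981 bp upstream) in that list also lay outside their promoters, with 3.70-fold enrichment each.

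Within gene bodies there were 26 peaks in 12 members, 24 of them wholly in introns. In the R273H list 5 members had one, STK3, FRMD6, TNIK, TAOK1 and LIMD1, where 9.06% of tested genes did. Y220C had 1 (WWC1) and Y234C had 1 (STK3), where 1.56% and 2.68% of tested genes did, and R273C had none, where 0.0676% did. In the WTOE list 9 members had a peak, where 17.0% of tested genes did. The members are long genes, with a median length of 117 kb beside 25.2 kb for tested genes. Per length they held 2.04 summits per Mb in R273H, near the 2.21 of tested genes. In WTOE they held 2.86 per Mb, below the 4.97 of tested genes. The members' rates rest on 10 summits in R273H and 14 in WTOE.

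Fold enrichment over input at these 26 peaks was 2.40 to 5.17. The highest was 1 of 6 intronic peaks of STK3 in the R273H list. The members with R273H peaks were at 5.33 (TAOK1), 4.52 (FRMD6), 3.81 (STK3), 2.92 (LIMD1) and 0 (TNIK) in the R273H line. The relation of peaks to levels was not tested. PTPN14 held 4 peaks in the WTOE list. The one of highest significance (chr1:214390716-214391012, 3.61-fold, −log10 q = 4.14) overlapped an exon by 25 bp, and another (chr1:214532162-214532479) lay in a long exon of a non-coding transcript that also holds the keratin pseudogene KRT18P12. Introns of LATS1, LATS2, MAP4K3, TAOK1, TEAD3, VGLL4, LIMD1 and WWC1 held the others of that list.

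The sequences at 3 of these intronic peaks are shown as examples of peaks called in members. They are the LATS2 peak, the VGLL4 peak that was nearest to a start site, and the R273H peak of FRMD6. No STK3 peak is among them, and whether the peaks of members lie in repeated sequence was not tested. They are on GRCh38, plus strand, 5′ to 3′, and capitals mark the 21 bases centred on the summit.
LATS2, WTOE, intron, chr13:20980071-20980370 (3.20-fold): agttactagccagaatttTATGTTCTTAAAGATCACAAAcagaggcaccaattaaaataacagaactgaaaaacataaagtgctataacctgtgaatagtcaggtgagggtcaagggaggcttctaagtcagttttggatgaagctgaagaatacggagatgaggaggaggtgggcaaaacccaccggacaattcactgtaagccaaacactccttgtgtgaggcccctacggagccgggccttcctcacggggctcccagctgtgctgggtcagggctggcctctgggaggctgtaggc
VGLL4, WTOE, intron, chr3:11615342-11615641 (3.30-fold): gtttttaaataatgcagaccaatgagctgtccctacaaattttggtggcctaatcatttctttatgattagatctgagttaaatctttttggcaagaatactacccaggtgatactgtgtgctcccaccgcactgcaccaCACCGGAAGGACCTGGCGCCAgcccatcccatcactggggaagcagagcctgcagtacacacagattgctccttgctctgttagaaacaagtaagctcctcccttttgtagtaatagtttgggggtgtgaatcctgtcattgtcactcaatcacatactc
FRMD6, R273H, intron, chr14:51646345-51646633 (4.22-fold): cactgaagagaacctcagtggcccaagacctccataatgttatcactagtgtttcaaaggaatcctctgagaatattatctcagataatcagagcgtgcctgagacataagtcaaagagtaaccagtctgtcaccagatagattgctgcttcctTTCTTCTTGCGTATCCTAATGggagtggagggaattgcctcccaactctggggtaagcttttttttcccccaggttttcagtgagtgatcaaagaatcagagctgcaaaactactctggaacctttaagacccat

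None of these 3 stretches held the p53 decamer, the half-site of the p53 response element, on either strand. The decamer reads the same on both strands, so a search of one covers the other. Of the 26 peaks in members, 2 had a decamer within 150 bp of the summit, both in STK3. Over all summits on assembled chromosomes the share was 15.5% in R273H and 7.01% in WTOE, and in sequence 5000 bp further on it was 15.6% and 8.01%. The share at summits was thus not above that of nearby sequence in these lists, nor in Y220C (6.34% and 6.99%) or Y234C (6.71% and 8.13%). In R273C, the shortest list, with no peak in a member, it was 8.05%, against 4.69% in nearby sequence. The nearby sequence of R273H itself held the decamer more often than that of any other list. Whether the R273H summits are enriched over other sequence was not tested. A missing match says only that these letters are not in the window.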

How the data were processed

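RNA of 13 lines and V5 ChIP of 5 lines were analysed, with 1 library per line and assay. For RNA, the authors aligned paired reads to GRCh38 with STAR, took gene counts from it, left out mitochondrial RNA, and deposited the values as log2(TPM+1). The sources describe a high duplication of reads and do not say that duplicates were removed from these values, which can inflate or blur low levels. Counts were not used here, so no count model was fitted and depth is unknown. The kit described does not mark strand, and 16 of the 36 members have exons that overlap exons of a gene on the other strand. For ChIP, the authors used Bowtie2 2.1.0 for alignment and SAMtools 1.7 for filtering, and called each line's peaks over its input with MACS2 2.1.2.20181017 (q of 0.05). The deposited fold enrichment is a ratio of ChIP to input at the summit, and the deposited −log10 p, −log10 q and score come from MACS2.

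The 14884 genes that reached a log2 level of 1 in 3 or more lines were tested with limma 3.58.1 (R 4.3.3), two-sided, with no covariate. Members' roles and all lists were written with earlier results of these data known. Values by line were given for members with an unadjusted p under 0.05 and the most abundant and the most variable member of each role (for groups over 5 lines as a range and median), and paralog families were compared by TPM share. Peaks were matched by 1 bp or more to GENCODE start sites, for which 14786 of the 14884 tested genes and all 36 members had an entry. A fold change on the log2(TPM+1) scale understates the change of low genes. The mutants and WTOE were made in different vectors, so vector and mutation cannot be told apart, and whether a line is a clone is not given in the sources used here. Alternatives were another pseudocount (0.1), other filters, scalings and priors, the number of genes detected as a covariate, and lines left out in turn. Values of some genes are not reported here. The limma steps were tested on simulated data. Python 3.11.15, pandas 2.3.3, pysam and samtools were used for the rest.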

Additional observations from a re-analysis of the deposited data

Results flagged for a closer look

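In groups of 4 to 10 lines, a member was set apart when its highest or lowest line lay further from the next line than Dixon's critical value allows. Of 108 groups examined 21 (19.4%) had such a line, beside 15.7% of the same groups over all tested genes, where chance gives about 1 in 20. The 10 mutant lines contain the other groups, so the flags are not independent. Over all tested genes 55.4% of such lines were Y234C or R273H. Of the 21 flags of members, 14 were Y234C, among the 6 structural lines or the 10 mutant lines. STK38 at 3.15, MAP4K3 at 1.09, TAOK1 at 3.28, TEAD1 at 4.62 and YWHAQ at 7.57 were set apart in both groupings. MOB1A at 6.30, WWC2 at 3.28, MAP4K4 at 5.90 and TEAD4 at 7.67 were set apart among the structural lines. TEAD4 was the only one of these that was higher than the other lines. In R273H, MOB1A at 7.04, FRMD6 at 4.52, TEAD1 at 6.27 and AJUBA at 2.48 were set apart among the 4 contact lines, and MAP4K4 at 4.01 and MINK1 at 0 among the 10 mutant lines. The last was YAP1 in R248Q, at 5.20, among the 10 mutant lines. The number of genes detected was lowest in R273H (12122) and low in Y234C (12409), and its part in these values was not tested.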

How the results depend on the processing

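In both comparisons of classes, 0 members were called under every alternative run (21 for mutant versus control lines and 19 for contact versus structural lines), and no named difference turned its direction. The lowest adjusted p among members over these alternatives was 0.628 for mutant versus control lines and 0.668 for contact versus structural lines. TAOK3 kept an unadjusted p under 0.05 in 8 of 21 alternatives, with differences of −1.90 to −1.05. TEAD2 did in 18 of 19, with 1.21 to 2.53, and VGLL4 in 17 of 19, with −2.56 to −1.05. Leaving out R273H moved the median of all genes between contact and structural lines to 0.18, and leaving out Y234C to −0.15. With a distance of 2 in place of 1, the members away from the other lines numbered 7 in Y234C, 5 in R273H and 3 in WT. These stood beside 20.3%, 19.4% and 10.3% of tested genes, so no excess was left in Y234C. R175H, H179R and WTKD had 1 such member each, and the other 7 lines had 0. Shares of tested genes at that distance are not given for these lines, so no trait of the members can be read from their counts. No promoter peak was found at a member under a q of 0.01, with summits only or with a shorter promoter. No paired analysis was possible because the lines carry no replicate numbers. Since read depth is unknown, levels near 0 cannot be told from undetected ones.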
